A study of Fragaria x ananassa with 28 samples.

Results

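The receptacle is the fleshy part of the strawberry, and the 4 small RNA libraries described here come from receptacles at day 8 after an injection of abscisic acid (ABA) or of nordihydroguaiaretic acid (NDGA). They were chosen by their labels: the 2 ABA libraries and the 2 NDGA libraries of day 8, among 14 small RNA libraries and 28 libraries in all. The plants were of the octaploid strawberry cultivar 'Toyonoka' (Fragaria × ananassa), and no allele or transgene separates the groups. Fruit 2 weeks past flowering received 100 µL of 1 µM ABA, of 100 µM NDGA, or of water through the pedicel, the fruit stalk. Fruit given water were taken at days 0, 5 and 8, those given ABA or NDGA at days 5 and 8. Each group was made from 10 fruits, with equal amounts of RNA from separate extractions pooled, per the labels. The labels do not say whether separate pools stand behind the 2 libraries of each group, so p-values cover only how far these libraries differ, which may be technical. Fewer cells of a type and less RNA per cell cannot be told apart in RNA from whole tissue.

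MicroRNAs (miRNAs) are short RNAs, cut from hairpin precursors by a Dicer enzyme and carried by argonaute proteins. In plants they pair almost perfectly with a messenger RNA and cause it to be cut or its translation to stop. Many conserved families act on transcription factors: miR156 and miR157 on squamosa promoter-binding-like (SPL) genes, miR159 on GAMYB genes, miR319 on TCP genes, and miR166 on class III HD-Zip genes. ABA is a hormone known to promote ripening of the strawberry receptacle. NDGA was used to block the synthesis of ABA. It inhibits lipoxygenases in general, so the NDGA group is not defined by ABA alone.

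The ABA libraries held 14344914 and 14090285 clean reads, of which 18.2% and 19.2% lay on known miRNAs. NDGA replicate 1 held 14957254, with 22.7% on known miRNAs. NDGA replicate 2 stands apart in scale: 21151809 clean reads are stated for it, but its values are whole numbers of reads only for a total near 5952490. On that total 31.8% of reads lay on known miRNAs, and 133 names were above 0, the fewest of the 4 libraries. Of the other small RNA libraries only water day 5 replicate 2 shares this property, with values that are whole for 6170090 reads and not for the 13967835 stated. The values used are RPM, reads scaled to the total of their library, as deposited, and results are given with and without these libraries where that changes them. Over 66 names above 0 in all 14 libraries, the rank correlation between replicates was 0.993 in the ABA pair and 0.917 in the NDGA pair. Replicate 2 of NDGA was closest to the other rescaled library (0.940), while replicate 1 was closest to NDGA day 5 replicate 1 (0.990).

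The table names 371 miRNAs, 248 of which were above 0 in at least 1 of the 4 libraries. A name is a database entry, such as miR156k, and 1 family can have several. The smallest value above 0 was 7 to 13 reads in each library, so a value listed as 0 is not a measured absence. Among the names with 10 RPM or more in at least 2 libraries, which were tested, 79 were above 0 in all 4 libraries. A further 13 were above 0 in the ABA pair only, 7 in the NDGA pair only, 55 were listed at 0 in a single library of a pair or in 1 of each, and 11 were at 0 in all 4. NDGA replicate 2 listed 32 names at 0 that its replicate held above 0, against 13 the other way, and 12 and 6 in the ABA pair.

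At day 8 the clearest differences among miRNAs above 0 in every library were in families tied to growth phase and to leaf and petal shape in Arabidopsis. Their role in the receptacle was not tested. The relatives miR156k and miR157a-5p were several times higher after ABA than after NDGA, and miR319a-3p was several times lower. The low-abundance miR5996 was also higher after ABA. Each of these calls was lost on leaving out at least 1 of the 4 libraries. The other passing names were read in a single group, among them miR166a, which was listed at 0 in both ABA libraries and was the most abundant name but miR166h-3p in the NDGA libraries. In all, 17 of the tested names passed limma's test at a Benjamini-Hochberg adjusted p below 0.05 (10.3%), 10 of them higher in ABA (6.06%) and 7 lower (4.24%), and 35 had an unadjusted p below 0.05. Of the 17 names, 13 had both libraries of a group listed at 0. With ABA replicate 2 left out 10 names passed, and 12, 13 and 22 did without NDGA replicate 2, ABA replicate 1 and NDGA replicate 1.

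**Figure D1:**
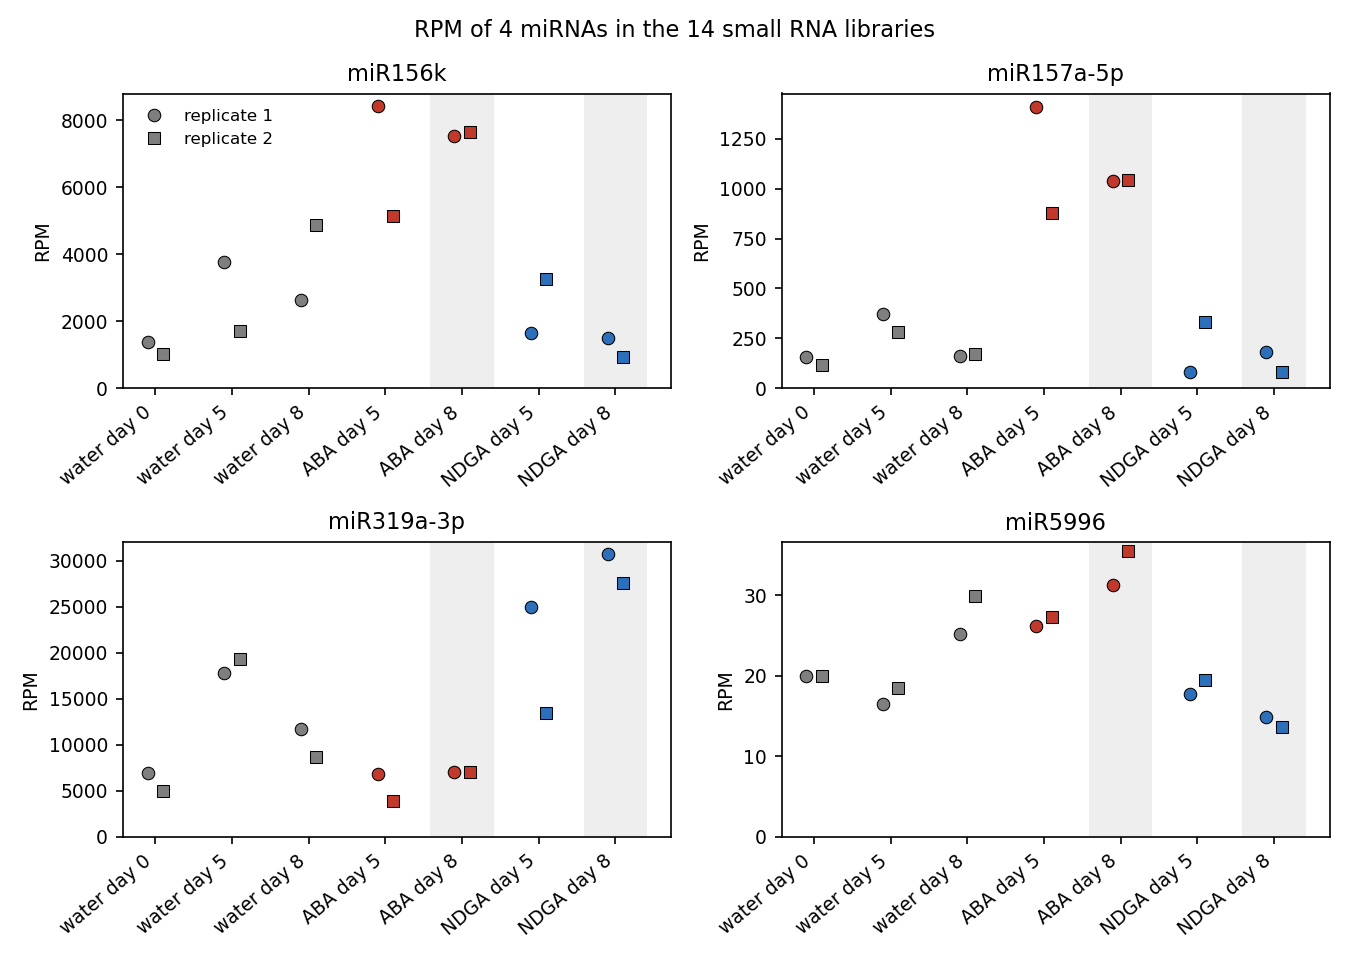
RPM of miR156k, miR157a-5p, miR319a-3p and miR5996 in all 14 small RNA libraries, on linear axes from 0, with circles for replicate 1 and squares for replicate 2. Grey bands mark the ABA and NDGA libraries of day 8, which do not overlap in any panel: miR156k stands at 7528 and 7659 RPM after ABA and at 1499 and 938 after NDGA.

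The miR156 and miR157 family keeps plants in the juvenile phase in Arabidopsis by lowering SPL transcription factors, and its level falls as plants age there. miR156k was at 7528 and 7659 RPM in the ABA libraries and at 1499 and 938 in the NDGA libraries. Both ABA libraries were high and the groups did not overlap. On the log2(RPM + 1) scale, which understates changes of low values, the difference was 2.68 ± 0.53 (SE, n = 2 per group, limma adjusted p = 0.0132). miR157a-5p, a close relative of it, was at 1036 and 1045 RPM after ABA and at 182.8 and 80.6 after NDGA. It was again high in both ABA libraries, by 3.09 ± 0.64 (adjusted p = 0.0175). The other strand of a miR156 precursor, miR156j-3p, was at 169.3 and 187.6 against 25.2 and 69.7 RPM. Its groups did not overlap either, but the difference of 2.06 did not pass (adjusted p = 0.134). Another name, miR157d-3p, was at 0.669 to 2.02 RPM in the 4 libraries and too low to test.

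These calls were lost on leaving out 3 of the 4 libraries and held without NDGA replicate 1 (adjusted p = 0.0237 for miR156k and 0.0186 for miR157a-5p). For miR156k the adjusted p was 0.0692 without ABA replicate 1, 0.0846 without ABA replicate 2 and 0.0958 without NDGA replicate 2, and for miR157a-5p it was 0.0870, 0.102 and 0.0958. Without both rescaled libraries it was 0.0712 for miR156k and 0.142 for miR157a-5p. The share of a library's RPM summed over names, which does not depend on its total, showed the same order. miR156k took 4.14% and 3.98% after ABA against 0.660% and 0.295% after NDGA. These sums hold near-equal names, so the shares are not a neutral scale. miR166a alone made up 15.2% and 21.6% of the NDGA sums and 0% of the ABA sums, which lowers the other shares after NDGA.

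In the water libraries of day 8, miR156k was at 2631 and 4884 RPM, between the ABA and the NDGA libraries. The ABA libraries were higher than water by 1.08 (adjusted p = 0.413) and the NDGA libraries lower by a log2 difference of -1.60 (adjusted p = 0.118), neither past the threshold. For miR157a-5p water stood at 159.4 and 171.3 RPM, within the range of the NDGA pair. It was 2.65 lower on the log2 scale than ABA (adjusted p = 0.0588), while NDGA minus water was -0.44 (adjusted p = 0.828). The ABA and NDGA comparisons use the same water libraries.

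Opposite miR156 in the phase-change pathway stands miR172, which lowers APETALA2-like factors and promotes flowering in Arabidopsis. None of its 4 tested names passed. miR172d-5p, the most abundant, was at 66.3 and 80.8 RPM after ABA, at 98.4 in NDGA replicate 1 and at 0 in replicate 2. miR172g-3p was listed at 0 in both ABA libraries and at 149 and 78.8 RPM after NDGA (adjusted p = 0.0912). The other 2 names were each above 0 in a single library of the 4, miR172c-3p at 84.7 RPM in ABA replicate 2 and miR172a at 135 in NDGA replicate 2. Which miR172 name held reads thus differed between all 4 libraries. Of the 7 tested names of the phase-change families, 2 were higher and 0 lower, beside 6.06% and 4.24% of all tested names. Both were miR156 or miR157 names, as were the 3 above 0 in all 4 libraries. The median difference of those 3 was 2.68, which is the value of miR156k itself, beside -0.06 over the 79 such names. The 4 tested miR172 names had a median of -0.32.

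miR319 and miR159 are related in sequence and act on TCP and GAMYB factors. TCP factors restrain cell division in leaves and petals of Arabidopsis, and GAMYB is a gibberellin-linked MYB factor that is also active in the ripening receptacle. miR319a-3p was at 7000 and 7085 RPM after ABA and at 30722 and 27607 after NDGA. Both NDGA libraries were high, the groups did not overlap, and the difference was -2.05 ± 0.37 (adjusted p = 0.00794). It made up 3.85% and 3.68% of the RPM summed over names after ABA and 13.5% and 8.67% after NDGA. Water at day 8 was at 11704 and 8674 RPM, between the 2 groups and nearer to ABA. NDGA was above water by 1.53 (adjusted p = 0.0540) and ABA minus water was -0.52 (adjusted p = 0.618). The call for ABA against NDGA was lost without ABA replicate 2 (adjusted p = 0.0549) or without both rescaled libraries (0.0709). With the rescaled libraries set to their stated clean reads, NDGA replicate 2 stood at 7769 RPM and the difference was -1.13 (adjusted p = 0.424), so the size rests on the scale as deposited.

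A second name, miR319, followed miR319a-3p within 5% wherever both were above 0. At day 8 it was at 6911 and 7035 RPM after ABA and at 29836 and 27553 after NDGA. Its difference of -2.04 had an adjusted p of 0.797, and it was listed at 0 in ABA day 5 replicate 2 and at 6774 RPM in replicate 1, a gap that enters the spread used by the fit. miR159a-3p, which lay within 5% of miR159a in every library and with it led the names after ABA, was at 32897 and 31491 RPM against 20789 and 32855. The NDGA values spanned the ABA values (difference 0.30, adjusted p = 0.810). By share it took 18.1% and 16.4% of the RPM summed over names after ABA and 9.16% and 10.3% after NDGA. The NDGA sums include miR166a and the ABA sums do not, which lowers the shares after NDGA. miR858a, of a family that acts on flavonoid MYB factors in Arabidopsis, was at 27.9 and 24.7 RPM against 0 and 84.0. Of 6 tested names in the MYB and TCP families, 0 were higher and 1 was lower, beside 6.06% and 4.24% of all tested names.

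Auxin-related families act on auxin response factors (miR160 and miR167) and on the TIR1 auxin receptors (miR393). miR167d was at 1212 and 1252 RPM after ABA and at 614 and 847 after NDGA, so that the groups did not overlap (difference 0.77, adjusted p = 0.450). miR160b ran the other way without passing, at 12.8 and 15.3 against 42.4 and 19.5 RPM (-0.99, adjusted p = 0.408). The receptor-directed strand miR393b-5p was at 15.6 and 0 against 17.99 and 21.3 RPM. Its partner strand miR393-3p was listed at 0 in both ABA libraries and at 8.83 and 23.9 RPM after NDGA, and passed (adjusted p = 0.000497, but 0.0716 with these groups fitted alone). That name was also at 0 in both ABA libraries of day 5 and in both water libraries of day 5, and at 21.7 and 27.3 RPM in water at day 8. It was the only passing name of 6 tested in the auxin families, beside 10.3% of all tested names.

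Among the families that pattern organs, miR166 holds the most abundant and the least steady names. miR166 acts on class III HD-Zip factors, which set the upper side of leaves and the vascular pattern in Arabidopsis. miR166h-3p, above 0 in every library, was at 26565 and 26821 RPM after ABA and at 35792 and 69547 after NDGA. Both NDGA libraries were higher, by unequal amounts, and the difference of -0.90 ± 0.36 did not pass (adjusted p = 0.179). miR166a was listed at 0 in both ABA libraries and at 34552 and 68874 RPM after NDGA (adjusted p = 2.11e-08). Where both names were above 0, in 4 libraries, their values lay within 5% of each other, and in the other 10 libraries miR166a was at 0. Those 4 libraries were the NDGA pair of day 8 and the water pair of day 5, and each of these pairs contains 1 of the 2 rescaled libraries. The partner strand miR166d-5p had the reverse listing, at 224 and 265 RPM after ABA and at 0 in both libraries of the same 2 groups (adjusted p = 4.16e-07). Values of miR166 names summed to 26789 and 27086 RPM after ABA and to 70343 and 138421 after NDGA. Summed over the names of a number, 17 of 136 numbers passed (12.5%), 10 higher (7.35%) and 7 lower (5.15%), miR166 among them (-1.87, adjusted p = 0.0141), but the highest miR166 name in each library gave -0.90 (adjusted p = 0.158). Without NDGA replicate 2 the sum had an adjusted p of 0.0759, without ABA replicates 1 and 2 it had 0.0814 and 0.0884, and the count of numbers was then 5, 6 and 5. Whether reads of miR166h-3p were counted again under miR166a was not tested.

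**Figure D2:**
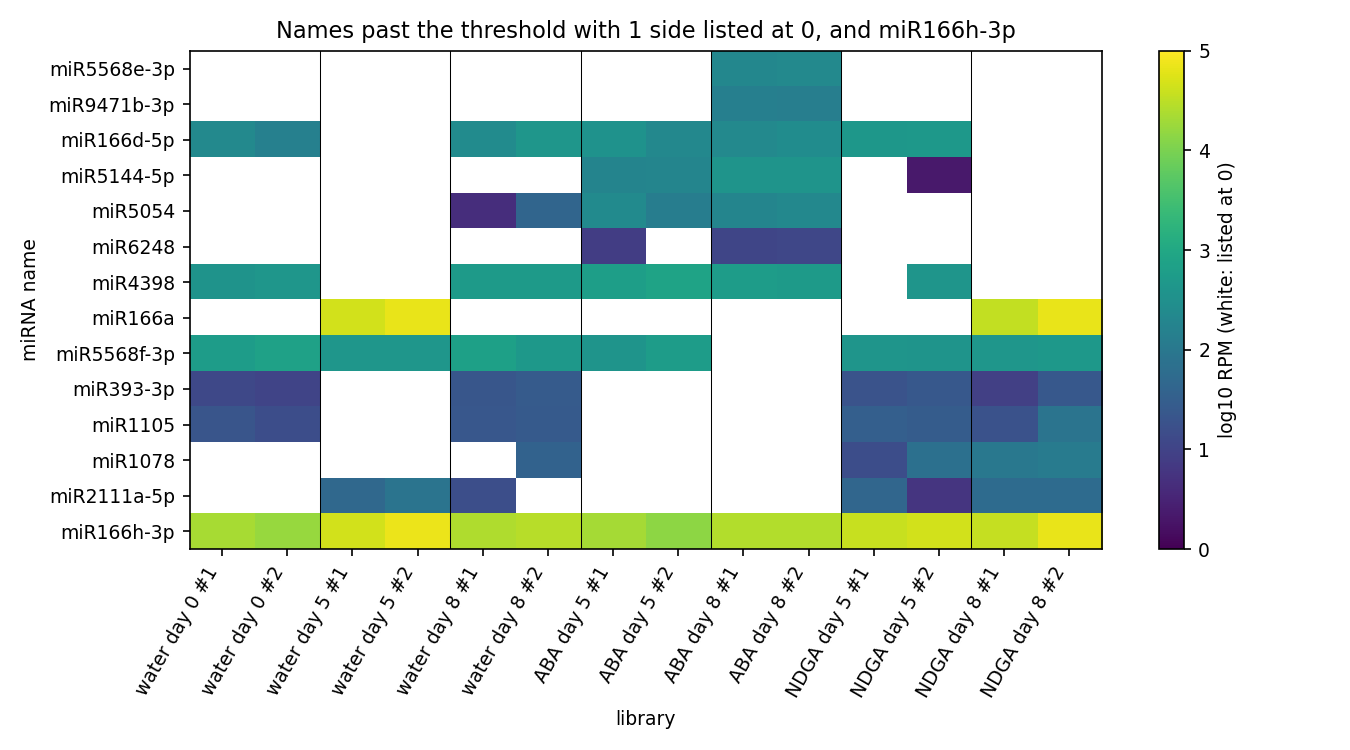
Log10 of RPM in 14 small RNA libraries (columns) for the 13 passing names listed at 0 in both libraries of ABA or of NDGA at day 8, with miR166h-3p for comparison (rows); white marks a value listed as 0. miR5568e-3p and miR9471b-3p are above 0 in the ABA libraries of day 8 alone, and miR5568f-3p in every library except those.

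The other patterning families did not differ beyond their spread. miR164b, which acts on NAC factors, was at 671 and 1027 RPM after ABA, between the NDGA values of 353 and 2410. miR396b, which acts on growth-regulating factors, was at 2624 and 2915 against 1714 and 978 RPM, without overlap (1.09, adjusted p = 0.318). miR171, which acts on scarecrow-like factors, was at 8.92 and 10.2 against 5.82 and 24.9 RPM. Of 9 tested names in these families 1 was higher and 1 lower, both of them miR166 names. Over all tested names 6.06% were higher and 4.24% lower, and counts this small say little about a family.

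miR168 and miR162 act on the silencing machinery itself. miR168, which lowers AGO1, was at 82.8 and 89.4 RPM after ABA and at 276 and 211 after NDGA. Its groups did not overlap, and the difference of -1.48 ± 0.46 fell short of the threshold (adjusted p = 0.0841). miR162-3p, which lowers Dicer-like 1, was at 43.5 and 49.1 RPM, between the NDGA values of 61.2 and 24.2. None of 3 tested names in these families passed by limma, and 1, miR168, had an unadjusted p below 0.05.

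miRNAs tied to copper and mineral supply were for the most part unresolved. Copper-responsive miR408-3p, which acts on blue copper proteins, was at 2241 and 2353 RPM after ABA and at 958 and 1994 after NDGA (0.73, adjusted p = 0.527). miR398b, which acts on copper-zinc superoxide dismutase, was at 973 and 1086 RPM, between NDGA values of 2453 and 457. Sulfate-responsive miR395a was at 201 and 195 against 50.3 and 68.2 RPM, without overlap, and did not pass (1.74, adjusted p = 0.248). Phosphate-responsive miR399b was at 21.7 and 22.4 against 18.9 and 34.8 RPM, and miR827 at 31.2 and 35.0 against 41.8 and 63.7. miR169h-3p, of a family that acts on NF-YA factors, was at 27.3 and 33.9 against 0 and 96.4 RPM. miR2111a-5p, of a family induced by low phosphate in Arabidopsis, was the name of this kind that passed: it was listed at 0 in both ABA libraries and at 55.4 and 56.6 RPM after NDGA (adjusted p = 0.0194). Its call was lost on leaving out any 1 of the 4 libraries. Of 9 tested names in the nutrient families 0 were higher and 1 was lower, beside 6.06% and 4.24% of all tested names. Of 5 in the copper families 0 passed by limma, with 0 at an unadjusted p below 0.05.

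miR482 and miR2118 act on disease resistance genes of the NBS-LRR class. miR482e-3p was at 304 and 310 RPM after ABA and at 585 and 956 after NDGA, and miR482 at 234 and 263 against 511 and 1269. Both were lower after ABA without overlap, by log2 differences of -1.28 ± 0.36 and -1.69 ± 0.47, and both stood just short of the threshold (adjusted p = 0.0557 for each). Their values summed to 538 and 574 against 1096 and 2225 RPM, and that sum passed (-1.49, adjusted p = 0.0460), though not without ABA replicate 1 (0.160), ABA replicate 2 (0.160) or NDGA replicate 2 (0.185). Against water at day 8, which stood at 292 and 173 RPM, miR482e-3p was higher after NDGA by 1.73 (adjusted p = 0.0476), and missed the threshold without NDGA replicate 2 (0.134) or water replicate 2 (0.190). Of 5 tested names, 0 passed in either direction for ABA against NDGA by limma, and 2 had an unadjusted p below 0.05.

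**Figure D3:**
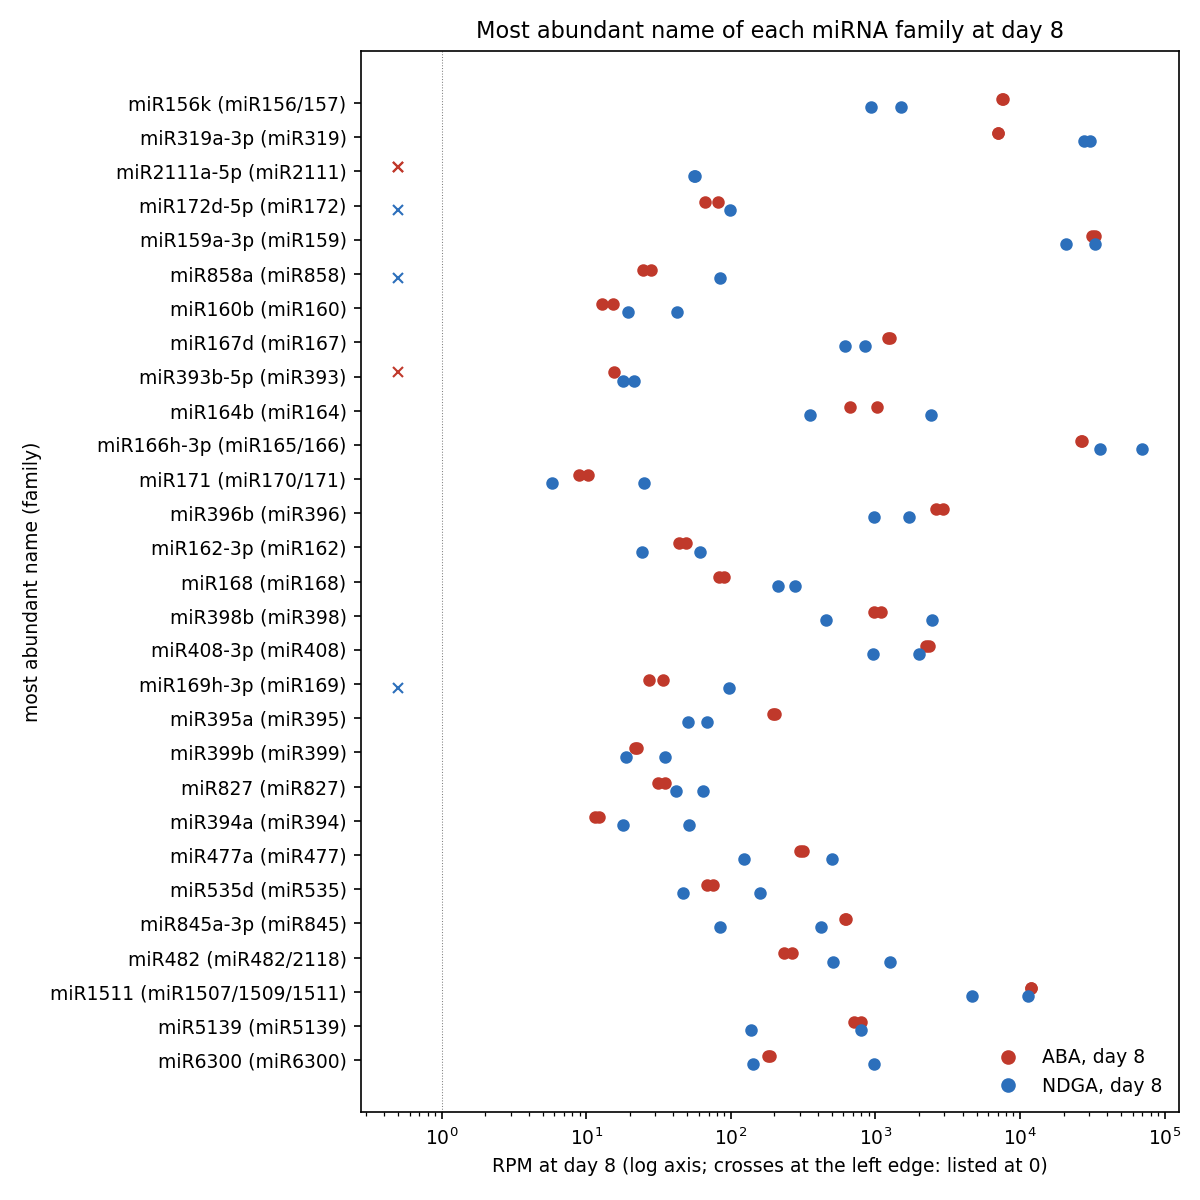
RPM, on a log axis, of the most abundant name of each miRNA family in the 4 small RNA libraries of day 8, with crosses for values listed as 0. The 2 ABA libraries lie close together in nearly every row, while the 2 NDGA libraries are often apart, as for miR164b at 353 and 2410 RPM.

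The remaining conserved names were stable or split within the NDGA pair. miR1511 was at 11827 and 11882 RPM after ABA and at 4680 and 11279 after NDGA. miR394a was at 11.4 and 12.1 against 17.9 and 50.9 RPM, miR477a at 302 and 316 against 122 and 500, and miR535d at 68.7 and 75.2 against 46.9 and 158.9. miR845a-3p, of a family matching retrotransposons in Arabidopsis, was at 614 and 622 against 423 and 83.8 RPM (1.71, adjusted p = 0.237). miR5139 was at 706 and 790 against 798 and 138 RPM, and miR6300 at 187 and 181 against 980 and 142. None of these 7 passed by limma, and 0 had an unadjusted p below 0.05. In each of the 7 the NDGA libraries lay further apart than the ABA libraries.

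Names outside the conserved families made up 10 of the 17 calls, 7 higher and 3 lower among 102 tested. They were also most of the tested names, so this count shows no concentration of calls in them. Over all tested names 10.3% passed, with 6.06% higher and 4.24% lower. Of these 10 calls, miR5996 alone was above 0 in every library. It was at 31.3 and 35.6 RPM after ABA and at 14.9 and 13.6 after NDGA. Its groups did not overlap, and it was higher by 1.17 ± 0.28 (adjusted p = 0.0281). Water at day 8 stood between them at 25.1 and 29.9 RPM. The call was lost without ABA replicate 1 (adjusted p = 0.0893), ABA replicate 2 (0.159) or NDGA replicate 2 (0.0732), and it held in 7 of 15 alternative settings.

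The other 9 were listed at 0 in both libraries of a group, and no fold change is given for them. Higher in ABA were miR5144-5p at 388 and 380 RPM (adjusted p = 3.85e-06) and miR5054 at 189 and 213 (0.000347). Both were also above 0 in the ABA pair of day 5, at 180 and 193 and at 248 and 129 RPM. miR5144-5p was at 0 in water at all days, and miR5054 was at 4.47 and 42.6 RPM in water at day 8. These names therefore stood out after ABA at both days.

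miR5568e-3p (207 and 221 RPM, adjusted p = 4.17e-08) and miR9471b-3p (144 and 140 RPM, 4.89e-08) were above 0 in no library except the ABA pair of day 8. Their small p-values restate that listing. miR5568f-3p was at 0 in that pair alone, and at 419 and 459 RPM after NDGA (adjusted p = 4.17e-08). The miR5568 names thus exchanged places, and their sum was at 207 and 221 against 419 and 459 RPM, lower after ABA by a log2 difference of -1.04 (adjusted p = 0.0394, and 0.0539 to 0.160 without single libraries of the 4). miR1105 was at 0 after ABA and at 17.9 and 85.3 RPM after NDGA (adjusted p = 0.000519, but 0.0699 with these groups fitted alone), with the same libraries at 0 as miR393-3p.

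miR4398 (570 and 521 RPM after ABA, adjusted p = 0.0281), miR6248 (11.01 and 11.64 RPM after ABA, 0.0246) and miR1078 (98.6 and 122 RPM after NDGA, 0.0179) were the least secure of these names. Each lost its call on leaving out any 1 of the 4 libraries. miR5568e-3p, miR5568f-3p, miR9471b-3p, miR5144-5p, miR5054, miR166a and miR166d-5p passed in all 15 alternative settings that gave them a value. These settings keep the values listed at 0, so they do not show that a listing at 0 is an absence. miR5568e-3p and miR9471b-3p met the filter only through the ABA pair of day 8, so the settings could do little to undo their calls. For all names with a group listed at 0, a call rests on reads in both libraries of a group and a listing at 0 in both of the other. Not every name so listed passed: 7 of 13 read in the ABA pair only did, and 6 of 7 read in the NDGA pair only. The spread over the other groups also enters the fit.

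**Figure D4:**
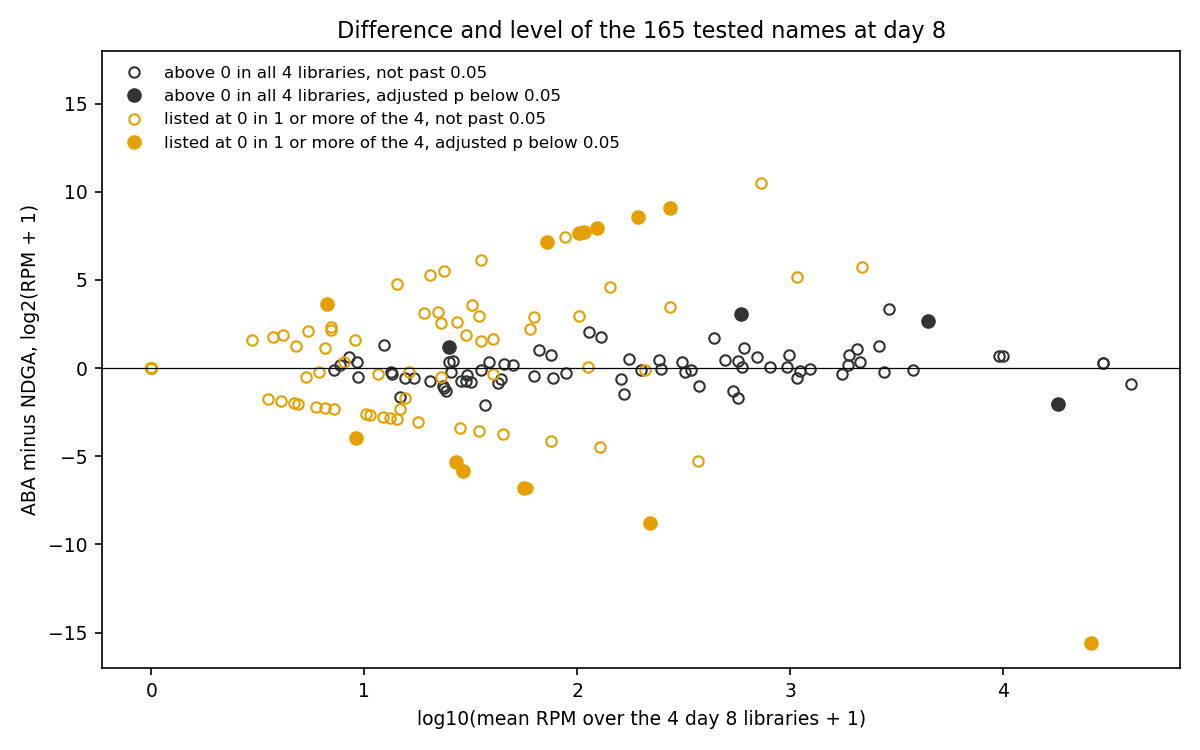
Log2 difference (ABA minus NDGA at day 8, on the log2(RPM + 1) scale) against the log10 mean RPM of the 4 libraries for all tested names; filled points passed the test, black points were above 0 in all 4 libraries, and orange points were listed at 0 in at least 1. The far points at both ends are orange, and their place is set by the added 1 RPM, while 4 filled black points lie within -2.05 to 3.09.

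To leave aside names that switch between being read and listed at 0, the test was repeated over the 64 tested names above 0 in all 14 libraries, a choice made after seeing the data. It called 4 (6.25%), 3 higher (4.69%) and 1 lower (1.56%), the same miR156k, miR157a-5p, miR5996 and miR319a-3p, and 17 had an unadjusted p below 0.05, 7 higher and 10 lower. Over these names the groups did not overlap in 34. The median gap between replicates was 0.10 on the log2 scale in the ABA pair and 0.94 in the NDGA pair. Reads were also compared over a wider set, the names above 0 in both replicates of a pair and above a minimum of reads. Per name, the replicates' reads differed by a median chi-square of 3.74 in the ABA pair (134 names) and 88.5 in the NDGA pair (97 names). Counting error alone gives 0.455. Of the 2 compared pairs, the NDGA pair thus held most of the replicate spread. Other groups were also wide, with a median chi-square of 67.8 in water at day 8, 120 in water at day 5 and 65.2 in NDGA at day 5. It was 19.8 in ABA at day 5 and 4.81 in water at day 0. The ABA pair of day 8 was the closest of the 7 groups.

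The families' direction was in part shared with day 5, where other fruit were sampled. There ABA against NDGA also gave 17 calls (10.3%), 7 higher (4.24%) and 10 lower (6.06%). Of these, 6 were called at both days, 35.3% of each list: miR319a-3p, miR157a-5p, miR5144-5p, miR5054, miR393-3p and miR1105. At day 5 miR319a-3p was at 6843 and 3835 RPM after ABA and at 24941 and 13409 after NDGA, without overlap (-1.84, adjusted p = 0.0202). miR157a-5p was at 1411 and 879 against 79.5 and 331 RPM, again without overlap (2.77, adjusted p = 0.0339). miR156k was at 8429 and 5130 against 1654 and 3271 RPM, without overlap but short of the threshold (1.50, adjusted p = 0.138). The call of miR319a-3p was lost without ABA replicate 2 (adjusted p = 0.103) or NDGA replicate 1 (0.138), and that of miR157a-5p without these (0.103 and 0.143) or ABA replicate 1 (0.147). Leaving out a library brought the day 5 count to between 7 and 12, with 11 without ABA replicate 1, 8 without ABA replicate 2 and 7 without NDGA replicate 1.

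The change of the difference between days was tested by an interaction term. It passed for 8 of the tested names (4.85%), with a difference higher at day 8 for 3 (1.82%) and lower for 5 (3.03%), each of which was listed at 0 in some libraries. Leaving out NDGA day 8 replicate 1 raised that count to 13. Among the 64 names above 0 in all libraries it passed for 0 by limma, with 5 at an unadjusted p below 0.05. Its adjusted p was 0.952 for miR319a-3p, 0.787 for miR156k and 0.990 for miR157a-5p.

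Against water at day 8, limma called 8 names for ABA (4.85%), 5 higher (3.03%) and 3 lower (1.82%). It called 5 for NDGA (3.03%), 3 higher (1.82%) and 2 lower (1.21%), with the same water libraries in both. After ABA the higher names were miR5568e-3p, miR9471b-3p, miR5144-5p, miR5054 and miR6248, and the lower ones miR5568f-3p, miR393-3p and miR1105. After NDGA miR166a, miR482e-3p and miR5658 were higher, and miR166d-5p and miR5054 lower. miR5658, which was not named by the rule, was at 16.3 and 14.5 RPM in water and at 59.9 and 47.5 after NDGA. Leaving out single libraries moved the NDGA count to 4 to 15, the highest without NDGA replicate 1, and the ABA count to 7 to 9. Calls lost in this way were those of miR6248 (0.154 to 0.204 without any 1 library) and miR5054 after ABA (0.172, 0.204 and 0.0583 without ABA replicates 1 and 2 and water replicate 1). After NDGA they were those of miR482e-3p (0.134 without replicate 2 and 0.190 without water replicate 2), miR5054 (0.0615 and 0.125 without replicates 1 and 2) and miR5658 (0.0664 without water replicate 2). In the authors' deposited table of calls against water, miR156k and miR157a-5p are marked up after ABA and unmarked after NDGA. miR319a-3p is unmarked after both there, miR166a is up after NDGA, and miR166d-5p is down after NDGA.

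Messenger RNA from the same groups shows the genes that these families act on. Its unit is RPKM, the reads per kilobase of an assembled transcript relative to all counted reads. Of 99136 transcripts tested by limma on log2(RPKM + 1), 3913 were higher after ABA than after NDGA at day 8 (3.95%) and 7005 were lower (7.07%), with a median difference of -0.21. Quantile normalization gave 4968 higher and 5071 lower, so the excess of lower transcripts depends on the scale. A fit of these 2 groups alone called 4043, and leaving out single libraries gave 6186 to 6749 (6634 and 6749 without ABA replicates 1 and 2, 6186 and 6717 without NDGA replicates 1 and 2). Transcripts carry the name of the closest described protein, and forms of 1 component can share reads.

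Transcripts described as SPL, a family of which some members are targets of miR156 and miR157, were lower after ABA wherever they passed: 0 of 39 were higher and 8 lower (20.5%, beside 7.07% of all transcripts), with a median of -0.21, which is the median of all transcripts. The SPL7-like transcript, described after a rice protein, was at 1.04 and 0.695 RPKM after ABA and at 8.58 and 8.45 after NDGA (-2.35 ± 0.24, adjusted p = 1.95e-05). An SPL18-like form was at 0.754 and 1.00 against 7.25 and 6.23 RPKM (-2.04, adjusted p = 0.00103), and an SPL13B-like form of the same component at 0.736 and 0.827 against 5.21 and 4.60 (-1.73, 0.00107). An SPL3-like transcript was at 0.211 and 0 against 3.21 and 2.43 RPKM (-1.79, adjusted p = 0.00287). It is the SPL transcript in the authors' deposited table of predicted targets of miR156k and miR157a-5p that passed here. The most abundant of the 8 was SPL14-like, at 50.0 and 47.9 against 67.2 and 70.9 RPKM (-0.49, adjusted p = 0.00409). Whether each of these transcripts carries a miR156 site was not tested, so a lower SPL transcript is not by its name a target. SPL4-like, SPL6-like and a further SPL3-like transcript made up the rest, at -1.09 to -1.48. These 3 missed the threshold without any 1 of the 4 libraries (adjusted p = 0.0541 to 0.149), and the other 5 passed without each. With these groups fitted alone, the predicted-target SPL3-like (0.0697) and SPL14-like (0.0721) of those 5 missed it.

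**Figure D5:**
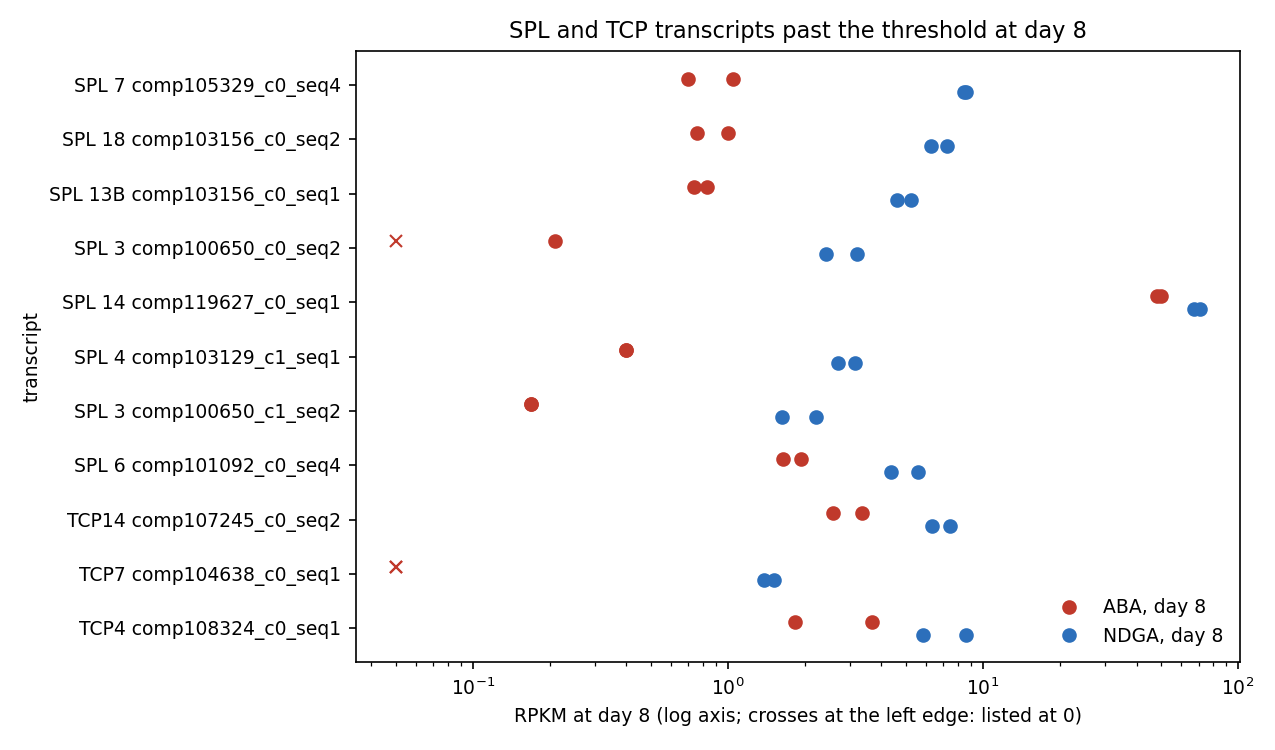
RPKM on a log axis of the transcripts described as SPL and TCP that differed between ABA and NDGA at day 8, in each of the 4 mRNA libraries. All 11 were lower in both ABA libraries, with SPL14-like at 50.0 and 47.9 against 67.2 and 70.9 RPKM as the most abundant.

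Over the authors' predicted targets of miR156k, 5 transcripts were tested, of which 1 was higher and 1 lower, and over those of miR157a-5p 7, of which 3 were higher and 1 lower. These numbers of tested targets are small, since 57 and 33 transcripts were predicted and most were below the filter on low values.

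TCP transcripts were lower after ABA where they passed, 3 of 22 (13.6%, beside 7.07% of all transcripts), with 0 higher and a median of -0.46. miR319a-3p was lower in the same group. TCP4-like, a target of miR319 in Arabidopsis and in the authors' table of predictions for miR319, was at 3.66 and 1.83 RPKM after ABA and at 5.84 and 8.56 after NDGA (-1.16, adjusted p = 0.0239). TCP14-like was at 2.59 and 3.37 against 6.32 and 7.42 RPKM (-0.99, adjusted p = 0.0121, and 0.107 with these groups fitted alone), and TCP7-like was listed at 0 against 1.52 and 1.39. Without single libraries the adjusted p of TCP14-like was 0.0930 (ABA replicate 1) and 0.0901 (NDGA replicate 2), that of TCP4-like 0.204 (ABA replicate 2) and 0.175 (NDGA replicate 2), and that of TCP7-like 0.0727 to 0.0949 without any 1. TCP14 and TCP7 are of the class that miR319 does not act on in Arabidopsis. GAMYB transcripts, the miR159 targets, gave 0 calls of 4 by limma with 0 at an unadjusted p below 0.05, and GAMYB itself was at 1.11 and 2.99 against 2.91 and 1.28 RPKM.

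Auxin response factor transcripts were higher in 0 and lower in 6 of 61 (9.84%), and 2 of the 6 passed without each single library. Over all transcripts 3.95% were higher and 7.07% lower, the shares to set beside each list here. ARF3-like, which is lowered through miR390 in Arabidopsis, was at 36.1 and 33.8 against 66.0 and 67.8 RPKM (-0.92, adjusted p = 6.88e-05). Of 10 TIR1 and AFB transcripts 1 was lower (10%), at 7.18 and 6.75 against 13.3 and 11.1 RPKM (-0.73, adjusted p = 0.0367). It missed the threshold without any 1 library (0.0697 to 0.209). NAC transcripts went both ways, 15 higher (12.9%) and 4 lower (3.45%) of 116, and 8 of these 19 passed without each single library. NAC25-like was at 68.6 and 60.2 against 20.0 and 19.2 RPKM (1.67, adjusted p = 1.24e-05). Class III HD-Zip transcripts had 1 lower of 12 (8.33%), REVOLUTA-like at 1.70 and 2.19 against 5.28 and 5.23 RPKM (-1.09, adjusted p = 0.0175). It missed the threshold without ABA replicate 1 (0.111), NDGA replicate 1 (0.0887) or NDGA replicate 2 (0.0808). Scarecrow-like transcripts had 3 higher (3.06%) and 4 lower (4.08%) of 98, and 2 of these calls held without each single library. SCL8-like was at 398.8 and 334.9 against 98.2 and 92.4 RPKM (1.93, adjusted p = 2.52e-07).

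Argonaute and Dicer transcripts were taken as whole classes, although miR168 and miR162 act on AGO1 and Dicer-like 1 in Arabidopsis. Argonaute transcripts were higher in 4 (6.25%) and lower in 6 (9.38%) of 64, beside 3.95% and 7.07% of all transcripts. AGO1, AGO2, AGO4, AGO5, AGO10 and AGO16 forms were among the 10, of which 1 passed without each single library. AGO1A-like was at 40.1 and 38.0 against 66.0 and 65.6 RPKM (-0.74, adjusted p = 0.000458). Passing forms described as AGO1 or AGO1A went both ways. The most abundant of them was higher after ABA, at 221 and 200 against 148 and 151 RPKM (0.49, adjusted p = 0.00539). That call was lost without ABA replicate 1 (0.0658). A further AGO1 form and a further AGO1A form were lower, by log2 differences of -0.55 and -0.57. Dicer transcripts were lower in 3 of 19 (15.8%), all described as homologs 2 or 3. The Dicer homolog 3 transcript was at 5.43 and 3.52 against 10.8 and 9.97 RPKM (-1.08, adjusted p = 0.0277). That call was lost without ABA replicate 2 (0.203), NDGA replicate 1 (0.138) or NDGA replicate 2 (0.0974). AP2-like transcripts, the miR172 targets, had 2 higher (6.45%) and 1 lower (3.23%) of 31, and 1 of these calls held without each single library. APETALA 2 was at 28.1 and 33.6 against 14.4 and 16.4 RPKM (0.95, adjusted p = 0.00139, and 0.0510 with these groups fitted alone).

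Target classes of the copper families had no common direction, although the 2 transcripts named by the rule for miR408 and miR398 were higher after ABA. A blue copper protein transcript, of the miR408 target class, was at 58.8 and 52.0 RPKM after ABA and at 6.49 and 5.44 after NDGA (3.02 ± 0.18, adjusted p = 1.55e-07). Blue copper transcripts as a list had 3 higher (16.7%) and 4 lower (22.2%) of 18, with a median of -0.31. The most abundant of the lower ones was at 48.0 and 43.3 against 84.4 and 80.2 RPKM (-0.84, limma adjusted p = 0.00148). Copper-zinc superoxide dismutase transcripts had 2 higher (15.4%) and 0 lower of 13, with SOD1-like at 47.9 and 50.8 against 16.3 and 14.8 RPKM (1.61, adjusted p = 5.35e-06). Laccase transcripts gave 0 calls of 63 by limma and growth-regulating factors 0 of 22, with 4 and 2 at an unadjusted p below 0.05. Of 17 transcripts for sulfate uptake and assimilation, the miR395 targets, 2 were higher (11.8%) and 0 lower. Of 5 PHO2 transcripts, the miR399 target, 1 was lower (20%), as was 1 of 19 SPX transcripts (5.26%), the miR827 targets. None of these 4 calls held without each single library. NF-YA gave 0 calls of 3 and the miR394 target F-box only 6 gave 0 of 1 by limma, with 0 at an unadjusted p below 0.05. Disease resistance transcripts were higher in 3 (0.547%) and lower in 27 (4.93%) of 548, both below the shares over all transcripts (3.95% and 7.07%), and 7 of the 30 passed without each single library, with RGA2-like at 18.4 and 23.4 against 46.2 and 46.5 RPKM (-1.12, adjusted p = 0.000121).

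Transcripts of achene markers, the seed-bearing fruitlets on the receptacle, took 0.00754% to 0.00870% of summed RPKM in the ABA libraries and 0.0149% to 0.0163% in the NDGA libraries, with 31 to 39 of 143 such transcripts above 0. Receptacle ripening markers took 0.420% to 0.431% in all 4 libraries. Achene markers thus moved with the groups at a low level, and their part in the miRNA and transcript differences was not tested.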

How the data were processed

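Small RNA and polyA mRNA libraries of 7 groups were grouped by their labels. The known-miRNA values that the authors deposited are RPM, although the sheet carries the name RPKM. Multiplied by the library's stated clean reads, they gave whole reads (within 0.1) in 12 of 14 libraries. The other 2 fit another total (18.8% and 16.8% whole at the stated one) and were used as the authors deposited them. mRNA values are RPKM on a de novo assembly, per the file headers of the authors' table. Clean read counts per library, the authors' calls and their predicted targets were taken from tables the authors deposited. The aligner, counter and miRNA database are not named in the labels or headers, and no miRNA sequence is printed. A name's reads may be shared with near-equal names, so sums and shares over names may count reads more than once.

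Names with 10 RPM or more in at least 2 libraries (165 of 371), and transcripts with 1 RPKM or more in at least 2 (99136 of 301219), were tested with limma 3.58.1 (R 4.3.3) on log2(value + 1) over 14 libraries in 7 groups, with a trended prior and no covariate. Benjamini-Hochberg adjustment ran within each comparison at 0.05, and SEs are those of the fit. No count test was run here: the values are deposited as RPM, the totals of 2 libraries had to be found from their values, and low values are listed as 0. Named were the 10 higher and 10 lower names of smallest p among those that passed (10 and 7), and the most abundant name of each family with a mean of 10 RPM or more. Per target list, the transcript of smallest adjusted p with a mean of 5 RPKM or more in the higher group was named, or else the most abundant. Other SPL and TCP transcripts, miR5658 and further members of described families were named after their values were seen. The libraries, families and lists were chosen with earlier results of these data known. Alternatives were other pseudocounts, filters and scalings, a replicate block, the compared groups alone, and single libraries left out. Chosen after seeing the data were a fit of names above 0 in all 14 libraries, the stated clean reads, and the highest name of a number.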

Additional observations from a re-analysis of the deposited data

Results flagged for a closer look

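The difference between ABA and NDGA changed from day 5 to day 8, by the interaction term of the limma fit, for 8 names. Each was listed at 0 in some of the 8 libraries compared, so only which libraries held reads is given. miR166a (adjusted p = 3.48e-07) was at 0 in all 4 libraries of day 5, and at 34552 and 68874 RPM after NDGA at day 8. miR5568f-3p (6.82e-07) was at 385 to 590 RPM in all 4 libraries of day 5 and at 0 in the ABA libraries of day 8. miR5568e-3p (6.82e-07) and miR9471b-3p (6.96e-07) were above 0 in the ABA libraries of day 8 alone. miR166d-5p (2.77e-06) was at 218 to 472 RPM in all 4 libraries of day 5 and at 0 in the NDGA libraries of day 8. The last 3 were above 0 in the ABA libraries of day 5 alone: miR2089-3p (6.96e-07) at 158.9 and 139.4 RPM, miR5286a (9.22e-06) at 26.7 and 22.4, and miR5497 (7.33e-05) at 25.5 and 15.1. Groups of 2 libraries are too small for a test of single libraries that stand apart.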

How the results depend on the processing

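The main limit is the NDGA pair, whose replicates differ in depth, in scale and in which names are listed at 0, with 1895663 miRNA reads in replicate 2 against 3395145 in replicate 1. For ABA against NDGA at day 8, 17 names passed, 4 over the names above 0 in all 14 libraries, and 10 to 22 with single libraries left out. Rescaling to a common sum moved the median of all names from 0 to 0.40, and stated clean reads moved it to 0.75, so differences under these scalings are relative to that shift. Over all alternatives, the 17 passing names gave 208 of 255 values that kept their direction and call, 47 that lost the call and 0 that changed direction. For the 13 names with a group listed at 0 the direction could not change. The other 4 kept their call in 11 of 16 alternatives (miR156k), 11 of 16 (miR157a-5p), 12 of 16 (miR319a-3p) and 7 of 15 (miR5996).

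Sums over a number gave 17 calls, 8 without both rescaled libraries, 4 at the stated clean reads, and 5 to 21 without single libraries. Day 5 gave 17 calls, 9 with a filter of 50 RPM, 5 over names above 0 in all libraries, and 7 to 12 without single libraries. The interaction gave 8, 13 with no filter, 0 over names above 0 in all libraries (5 at an unadjusted p below 0.05), and 8 to 13 without single libraries. ABA against water gave 8, 5 with a filter of 50 RPM, 13 with these groups fitted alone, 0 by limma over names above 0 in all libraries (10 unadjusted), and 7 to 9 without single libraries. NDGA against water gave 5, 2 with no filter, 9 with a filter of 50 RPM, 16 at a common sum (1 higher and 15 lower), 3 after quantile normalization, 8 with these groups fitted alone, 12 without both rescaled libraries, 2 at the stated clean reads, 10 over names above 0 in all libraries, and 4 to 15 without single libraries. For mRNA, 10918 transcripts passed, 4043 with these groups fitted alone and 6186 to 6749 without single libraries.

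A fit with the replicate number as a block called 17 names at day 8 and 11 at day 5. Deviations of same-numbered libraries correlated from -0.57 to 0.87 between groups. Among water and NDGA of days 5 and 8 every correlation was positive, from 0.47 to 0.87. Those of ABA day 8 with the other groups lay between -0.14 and 0.03. The numbers thus went together in some groups and not in others. What such libraries share was not tested, and the block is only an alternative.

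Differences that changed direction all belonged to named miRNAs that had not passed (35 of 406 values of 26 names, in which 10 gained a call), and the cause was not tested. Over single libraries left out they ranged from -0.42 to 6.21 for miR172d-5p, -0.030 to 0.63 for miR159a-3p, -1.64 to 4.77 for miR858a, -1.54 to 1.23 for miR164b, -1.29 to 0.63 for miR171, -0.40 to 0.91 for miR162-3p and -1.25 to 1.17 for miR398b. The range was -1.63 to 4.97 for miR169h-3p, -0.64 to 0.21 for miR399b, -0.69 to 1.33 for miR477a, -1.13 to 0.61 for miR535d, -0.096 to 2.43 for miR5139 and -2.41 to 0.37 for miR6300. In each range an end is the value without NDGA replicate 1 or 2. Without both rescaled libraries, miR172d-5p (-0.42), miR164b (1.23), miR171 (0.63), miR162-3p (-0.40), miR399b (0.21), miR535d (0.61) and miR5139 (-0.096) changed direction. A common sum reversed miR164b (0.37), miR171 (0.15), miR398b (0.48), miR399b (0.29) and miR535d (0.25), and median ratios miR398b (0.056). The stated clean reads reversed miR164b (0.76), miR166h-3p (0.012), miR171 (0.52), miR398b (0.87), miR399b (0.65), miR827 (0.26) and miR535d (0.64).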
